A study of Mus musculus with 2 samples.

Results

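Complement genes were described in the whole uterus of pregnant C57BL/6 mice on day 4, when it prepares for implantation of the embryo. RNA sequencing was done on 2 mice, with 1 library each, called uterus 1 and uterus 2. Both titles carry the letters WT, and the labels name no treatment, allele or second group, so the data give levels and the spread between 2 animals, and no comparison of conditions. The genes are 31 complement components, receptors and regulators chosen by symbol, with earlier results of these data known. All 31 were found among the 22740 genes of the table. Levels are RPKM, reads divided by transcript length and by library size, given for each uterus or as mean ± SD over both (n = 2). A gene was called detected at 1 RPKM or more in both uteri.

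Complement is a chain of blood and tissue proteins that marks and punctures foreign surfaces. In the classical pathway C1q binds antibody or altered surfaces, and its attached proteases C1r and C1s cut C4 and C2. The alternative pathway amplifies on C3 through factor B, factor D and properdin. Both split C3, and the terminal components then assemble a pore, while regulators on host cells and in fluid stop the chain. In the rodent uterus C3 is known as an oestrogen-induced secretion of the epithelium, and a membrane regulator of rodents, Cr1l (Crry), is known to be needed for survival of the embryo.

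Reads recovered from the RPKM values summed to 3785173 and 4203402 over the genes of the table. The complement genes took 0.218% and 0.242% of them. The sums depend on how reads were recovered: with the smallest possible whole reads they were 3483233 and 3869705. Genes that mark the uterus were present: Hoxa10 lay at 112 and 115 RPKM, Pgr at 77.5 and 66.4 RPKM and Esr1 at 107 and 99.2 RPKM. In whole tissue, fewer cells of a type and less RNA per cell cannot be told apart.

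Of the 31 complement genes, 22 (71.0%) were detected in both uteri, against 58.4% of all genes and 61.6% of the genes with a protein-coding identifier. This higher share belongs to the list of 31, since 28 other complement genes, given below, were detected at 35.7%. Of the 31, 13 (41.9%) reached 10 RPKM in both, where 30.4% of all genes and 33% of the protein-coding ones lay that high. Listed at 0 in both were 2 of the 31, Cfd and C8b, against 23.4% of all genes. The median over the 31 genes was 7.71 ± 1.28 RPKM, against 3.23 RPKM for all genes. Levels were uneven along the chain. The 9 classical and lectin pathway genes summed to 350 RPKM, or 42.8% of the summed level of the 31 genes, and the 6 terminal genes to 3.43 RPKM, or 0.420%.

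**Figure D1:**
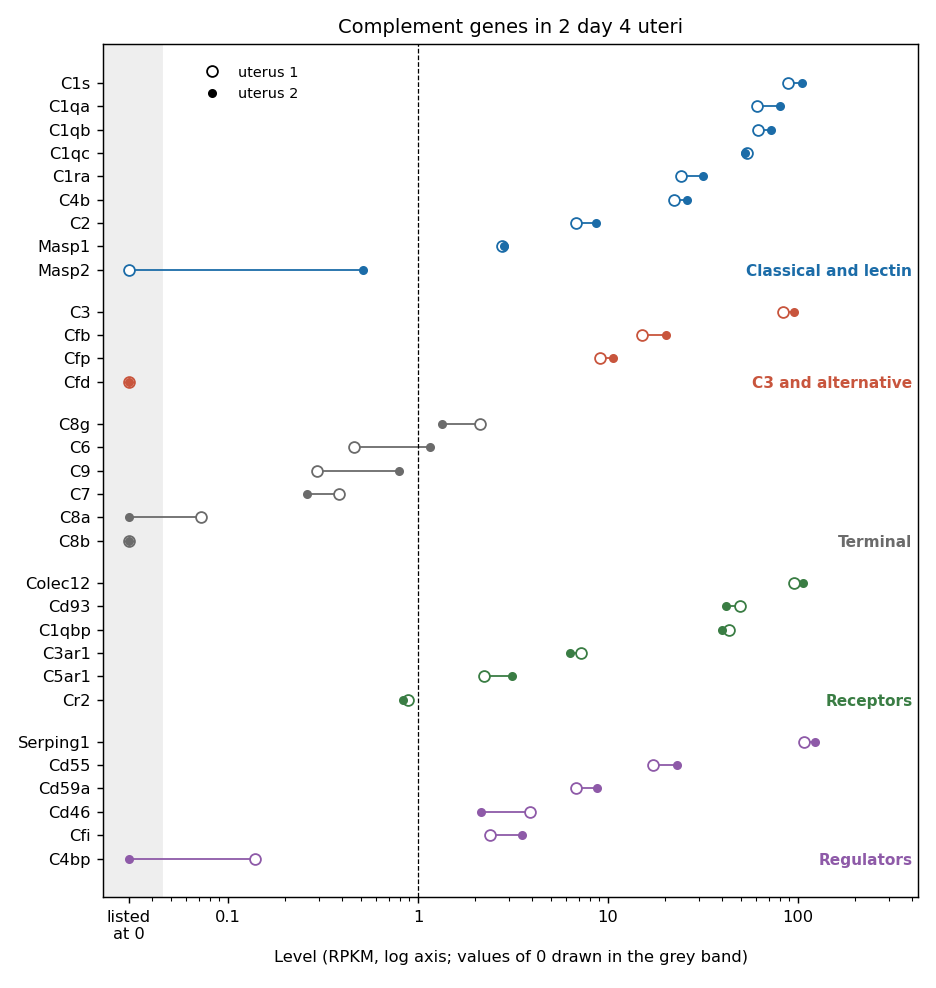
Level of each complement gene in uterus 1 (open circles) and uterus 2 (filled circles), in RPKM on a log axis, by role. The dashed line marks 1 RPKM, and values listed as 0 are drawn in the grey band. The terminal genes sit at or below 2.11 RPKM, while Serping1, Colec12, C1s and C3 lie near 100 RPKM.

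The genes of the C1 complex and its inhibitor were among the highest. C1q is built from A, B and C chains, encoded by C1qa, C1qb and C1qc. C1qa reached 61.0 RPKM in uterus 1 against 80.1 RPKM in uterus 2, C1qb at 61.2 and 72.4 RPKM, and C1qc at 53.9 and 52.4 RPKM. The 3 chains thus lay between 52.4 and 80.1 RPKM. The ratio of C1qa to C1qc was 1.13 in uterus 1 and 1.53 in uterus 2, and that of C1qa to C1qb was 1.00 and 1.11. C1qa and C1qb overlapped between animals, and both lay above C1qc in each uterus.

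The 3 C1q genes stand side by side on the minus strand of chromosome 4 (build mm9, the same assembly as NCBIM37). C1qb occupies bases 136436061 to 136442092, C1qc 136445717 to 136448829 and C1qa 136451831 to 136454759, with gaps of 3624 and 3001 bases. Their promoters are shown because these neighbours encode chains of 1 protein and all lay between 52.4 and 80.1 RPKM. Each run is the 250 bases before the most upstream start in the deposited table or GENCODE M1, read from NCBIM37 on the minus strand, and capitals mark GGAAGT or its reverse complement ACTTCC, the core bound by ETS family factors such as PU.1.
C1qa, chr4:136454760-136455009: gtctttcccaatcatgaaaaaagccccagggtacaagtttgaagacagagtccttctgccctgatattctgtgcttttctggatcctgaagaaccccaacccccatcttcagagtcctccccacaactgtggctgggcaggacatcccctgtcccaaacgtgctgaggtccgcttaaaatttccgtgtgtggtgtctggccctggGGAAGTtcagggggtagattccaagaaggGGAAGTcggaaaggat
C1qb, chr4:136442103-136442352: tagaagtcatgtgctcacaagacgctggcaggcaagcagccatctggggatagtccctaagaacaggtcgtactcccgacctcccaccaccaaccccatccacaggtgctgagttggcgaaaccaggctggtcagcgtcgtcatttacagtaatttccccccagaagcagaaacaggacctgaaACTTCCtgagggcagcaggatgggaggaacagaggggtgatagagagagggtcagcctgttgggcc
C1qc, chr4:136448981-136449230: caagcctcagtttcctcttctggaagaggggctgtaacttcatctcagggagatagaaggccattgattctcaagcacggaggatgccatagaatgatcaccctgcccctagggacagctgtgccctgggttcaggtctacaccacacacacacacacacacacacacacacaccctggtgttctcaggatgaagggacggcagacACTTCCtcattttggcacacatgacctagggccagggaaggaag

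GGAAGT, searched on both strands, occurred in all 3 C1q promoters, at 45 to 40 and 16 to 11 bases before the start of C1qa, 66 to 61 before C1qb and 44 to 39 before C1qc. This motif was chosen after the sequences were seen. It occurred in 7 of the 31 complement promoters (22.6%) and in 19.6% of 22663 promoters of the same length. GAGGAA, another form of the PU.1 core, can overlap GGAAGT and occurred in C1qb and C1qc but not in C1qa, in 4 of the 31 and in 22.6% of all promoters. TTCNNNGAA, the interferon-responsive GAS motif, occurred in 5 of the 31 (C1qa, Masp2, Cfb, C7 and C8a) and in 7% of all promoters. A match of letters is a description and not a bound site.

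C1s, the protease of the C1 complex that cuts C4 and C2, lay at 88.2 and 105 RPKM. C1ra, the protease that activates it, lay at 24.3 and 31.5 RPKM, so the level of C1s was 3.63 and 3.34 times that of C1ra in the same uterus. The genes lie on chromosome 6 (C1ra 124462639 to 124473458, C1s 124480362 to 124492339) beside their copies C1rb and Gm5077. Of the 50-base stretches of the C1ra transcript 47.5% also occur in C1rb, and 24.3% of those of C1s occur in Gm5077, so part of their reads may be split. Both copies were listed low, C1rb at 0.120 and 0.108 RPKM and Gm5077 at 0.980 and 0.883 RPKM.

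Serping1, which encodes the C1 inhibitor that inactivates C1r, C1s and the MASP proteases, had the highest level of the 31 genes, at 107 and 123 RPKM. It ranked 388 among 22740 genes (chromosome 2, 84605517 to 84615586). Its level was 1.21 and 1.17 times that of C1s and 4.41 and 3.92 times that of C1ra.

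The substrates of C1s were lower. C4b, the C4 gene, lay at 22.1 and 25.9 RPKM and C2, the protease part of the classical C3 convertase, at 6.81 and 8.62 RPKM. The C4 copy C4a lay at 0.195 and 0.175 RPKM, and 35.2% of the 50-base stretches of the C4b transcript also occur in C4a transcripts, which were read from the genome because the protein-coding transcript set used for the other shares holds no C4a. The lectin pathway proteases were low. Masp1 lay at 2.75 and 2.82 RPKM, and Masp2 was listed at 0 in uterus 1 and at 0.511 RPKM, on 7 reads, in uterus 2.

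C3, on which all pathways meet, was the fourth highest of the 31 genes at 83.4 and 95.6 RPKM (chromosome 17, 57343396 to 57367559). It held the most reads of them, 1642 and 2089. Cfb, factor B and the protease of the alternative convertase, lay at 15.1 and 20.2 RPKM, and the level of C3 was 5.53 and 4.74 times higher. Cfp, properdin, which stabilises that convertase, lay at 9.07 and 10.6 RPKM.

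Cfd, factor D, which cuts factor B and is known as adipsin in fat cells, was listed at 0 in both uteri. Of the 5 fat markers Adipoq, Cidec and Retn were also listed at 0, and the list summed to 0.0801 and 0.123 RPKM. Rpl26, a ribosomal protein gene that cells in general use, is listed at 0 as well, so a listed 0 is not read as absence.

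Cfb and C2 are neighbours on the minus strand of chromosome 17, with Cfb at 34993319 to 34999459 and C2 at 34999547 to 35019045, only 87 bases apart. C4b lies on the same strand at 34865326 to 34880842. The stretch between the annotated start of Cfb and the end of C2 is shown because factor B and C2 are each other's counterparts in their convertases. It holds 83 bases and neither GGAAGT nor GAGGAA.
Cfb to C2 interval, chr17:34999464-34999546, minus strand: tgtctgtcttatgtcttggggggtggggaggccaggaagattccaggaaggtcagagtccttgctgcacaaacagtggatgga

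GENCODE M1 lists a further gene, Gm20547, that holds 81.4% of the 50-base stretches of the Cfb transcript and 58% of those of C2. Reads common to these genes cannot be assigned with certainty, and how the authors counted them is not given in the sources used here.

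**Figure D2:**
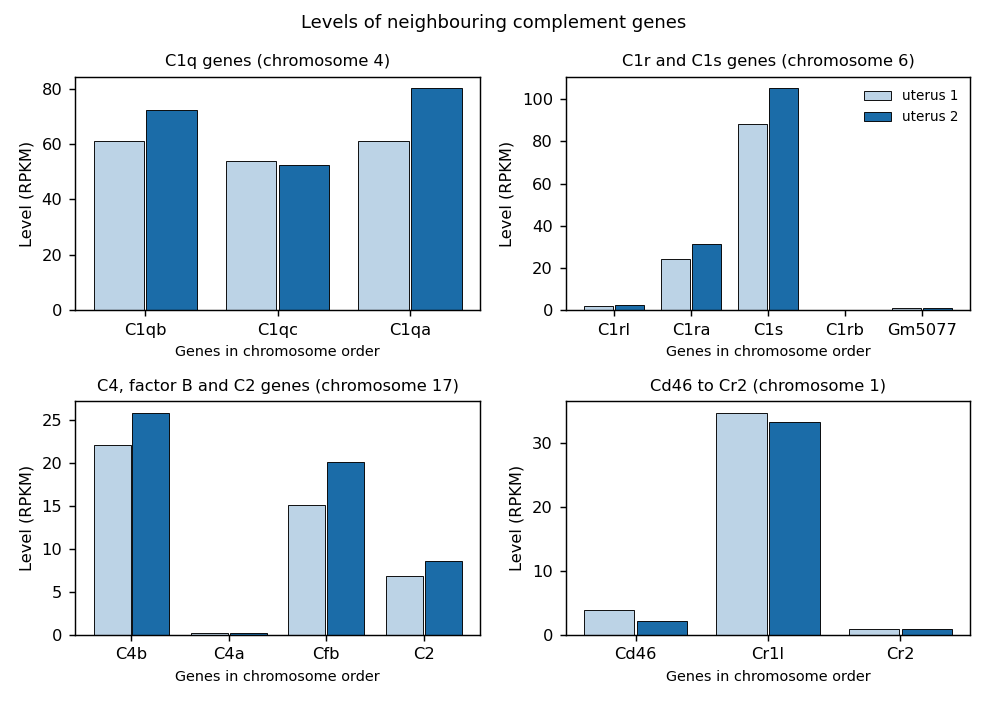
Level in RPKM (bars start at 0) of complement genes in 4 chromosomal neighbourhoods, in uterus 1 (light) and uterus 2 (dark), with genes in chromosome order. The C1q neighbours lie between 52.4 and 80.1 RPKM. C1rb, Gm5077 and C4a are near 0 beside C1ra, C1s and C4b, and Cr1l stands above Cd46 and Cr2.

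Terminal pathway genes, which encode the pore, lay near the limit of these libraries. C8g, the gamma chain of C8, was the only one of 6 detected in both, at 2.11 and 1.33 RPKM on 10 and 7 reads. It overlaps Fbxw5 on the opposite strand over 942 bases, and Fbxw5 lay at 20.2 and 16.9 RPKM, so without strand its reads and those of Fbxw5 cannot be told apart. C6 lay at 0.459 and 1.16 RPKM on 5 and 14 reads.

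C9, which forms the wall of the pore, lay at 0.295 and 0.798 RPKM on 2 and 6 reads. C7 lay at 0.385 and 0.260 RPKM on 4 and 3 reads. C8a had 1 read in uterus 1 and was listed at 0 in uterus 2, and C8b was listed at 0 in both. The C5 gene Hc, which starts this part of the chain, lay at 0.670 and 0.474 RPKM on 14 and 11 reads. The level of C3 was 124.5 and 201.6 times that of Hc, a ratio that rests on few Hc reads. At this depth 1 read on a transcript of 2000 bases is worth 0.130 RPKM in uterus 1 and 0.117 RPKM in uterus 2.

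Among receptors, Colec12, a scavenger receptor with a collagen-like stalk, as C1q has, was highest at 95.2 and 106 RPKM. Cd93, a membrane protein of endothelium and myeloid cells once named as a C1q receptor, lay at 49.3 and 41.6 RPKM. The endothelial marker Pecam1 lay at 50.7 and 50.9 RPKM, Kdr at 22.9 and 16.6 RPKM and Vwf at 13.1 and 9.57 RPKM. Of the 6 endothelial markers, 3 were higher in uterus 2 and 3 lower. C1qbp, named for binding C1q but known mainly as a mitochondrial protein, lay at 43.2 and 39.7 RPKM and overlaps Rpain on the opposite strand over 88 bases.

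The receptors of the complement fragments that attract and activate leukocytes were lower. C3ar1, the C3a receptor, lay at 7.16 and 6.34 RPKM, and C5ar1, the C5a receptor, at 2.23 and 3.11 RPKM. Cr2, the complement receptor of B cells and follicular dendritic cells, was under the threshold in both uteri at 0.882 and 0.833 RPKM on 21 and 22 reads. Of the B cell markers, Ms4a1 lay at 0.380 and 0.343 RPKM, Cd79a at 1.18 and 2.83 RPKM and Cd79b at 0.653 and 2.75 RPKM.

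The regulators fell into membrane and fluid proteins. Cd55, which speeds the decay of convertases on host cells, lay at 17.2 and 23.0 RPKM, with the copy Daf2 at 0.197 and 0.177 RPKM. Cd59a, which blocks the pore on host cells, lay at 6.78 and 8.71 RPKM, with Cd59b at 0.328 and 0.886 RPKM. Cd46, a cofactor for cutting C3b that mice are known to use chiefly in the testis, lay at 3.87 and 2.13 RPKM on 18 and 11 reads.

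Cfi, factor I, the protease that cuts C3b and C4b, lay at 2.39 and 3.51 RPKM on 19 and 31 reads. C4bp, a fluid cofactor made in liver, had 0.139 RPKM in uterus 1 and was listed at 0 in uterus 2. The liver markers Apoa1, F2, Fgb and Ahsg were listed at 0 in both uteri, and Alb held 0 and 0.115 RPKM. Tat lay at 0 and 0.0988 RPKM, Apob at 0.469 and 0.405 RPKM, and Ttr was detected at 4.27 and 5.39 RPKM.

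Of 28 other complement genes, 10 (35.7%) were detected in both uteri, against 58.4% of all genes. Among those averaging 10 RPKM or more, Clu, clusterin, which binds terminal complexes, lay at 46.4 and 48.0 RPKM. Cr1l, the rodent membrane regulator, lay at 34.8 and 33.4 RPKM, 9.0 and 15.7 times the level of its neighbour Cd46. Itgb2, the beta chain of complement receptors on leukocytes, lay at 11.2 and 11.9 RPKM. Of the 10 other genes of initiation, 1 was detected in both (C1rl, at 1.91 and 2.34 RPKM, named after its values were seen), and Mbl1, Mbl2, Fcnb, Colec10 and Colec11 were listed at 0.

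When the 22 genes that averaged 1 RPKM or more were put in order of level, the ranges of the 2 uteri overlapped in 12 of the 21 neighbouring pairs. Serping1 stood apart from Colec12 only narrowly, at 107.0 RPKM in uterus 1 against 106.2 RPKM for Colec12 in uterus 2. The 95% counting intervals of these 2 values overlapped (99.5 to 115 and 101 to 112 RPKM). Colec12 overlapped C1s and C1s overlapped C3. C1qb stood apart from C1qc. C1ra, C4b, Cd55 and Cfb formed an overlapping run, as did Cd46, Cfi, Masp1 and C5ar1. With 2 values a gene, an overlap or gap is a description of these animals.

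The uteri were then compared gene by gene on the log2 ratio (uterus 2 against uterus 1) with 0.1 RPKM added as a pseudocount, which understates the change of low genes. None of the 22 genes was 2-fold apart, against 2.6% of the 13647 genes at this level. The median ratio was 0.23, against 0.00 for all these genes, and 16 of the 22 (72.7%) were higher in uterus 2, against 50.1% of all. By role, 7 of 8 classical and lectin genes, all 3 measured genes of C3 and the alternative pathway and 4 of 5 regulators were higher in uterus 2. Of the receptors 2 of 5 were, and the 1 terminal gene measured, C8g, was lower.

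An exact binomial test on the recovered reads compared the 2 libraries, which are not conditions, with p-values adjusted by Benjamini-Hochberg over 15130 genes. It called 5 of 27 complement genes tested (18.5%), against 4.73% of all, 4 of them higher in uterus 2, against 2.18% of all. Among genes with at least 100 reads in sum it called 5 of 18, against 6.49% of all such genes. The 5 called genes each held at least 253 reads in uterus 1 and 369 in uterus 2. A floor of 100 reads thus matches their depth only in part, and an excess among complement genes at matched depth was not tested. Higher in uterus 2 were C1s (log2 ratio 0.25, exact adjusted p 0.00132), C3 (0.20, 0.00196), C1qa (0.39, 0.0231) and C1ra (0.37, 0.0327). Cd93 was lower (-0.25, exact adjusted p 0.00130). C1qb (0.24, exact adjusted p 0.319), C1qc (-0.04, 0.972), Serping1 (0.21, 0.0708), Cd55 (0.41, 0.0758), Cfb (0.42, 0.0814) and Colec12 (0.16, 0.0875) did not pass. The test knows counting error only: with 1 library an animal, a difference between the animals and one between library preparations cannot be told apart.

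**Figure D3:**
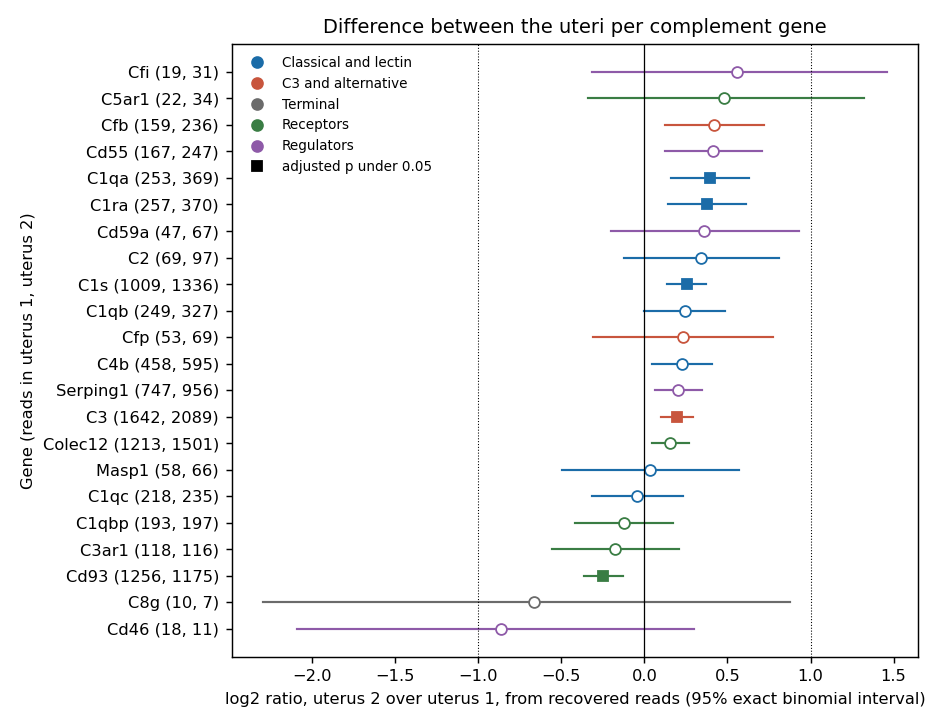
Log2 ratio of uterus 2 over uterus 1 from recovered reads, with 95% exact binomial intervals that cover counting error only, for the 22 complement genes that averaged 1 RPKM or more. Filled squares passed the exact binomial test after adjustment over 15130 genes, dotted lines mark 2-fold, and reads in each uterus stand beside the names. C1s, C3, C1qa and C1ra lie right of 0 and Cd93 left of it.

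Cell type markers were set beside these ratios. The summed macrophage markers lay at 91.1 and 94.0 RPKM, with 3 of 6 higher in uterus 2. C1qa, a gene of tissue macrophages, was 3.15 and 3.50 times the level of the macrophage marker Csf1r. It was 3.17 and 4.63 times that of Emr1. The other C1q chains did not move as C1qa did. The log2 ratio was 0.39 for C1qa, 0.24 for C1qb and -0.04 for C1qc, beside 0.24 for Csf1r and -0.15 for Emr1. Summed epithelial markers lay at 257 and 289 RPKM (3 of 6 higher), stromal markers at 3956 and 3788 RPKM (4 of 6) and endothelial markers at 188 and 181 RPKM (3 of 6). The mesothelial list lay at 13.1 and 15.1 RPKM (3 of 4), the ovary and oviduct list at 9.94 and 14.0 RPKM and the liver list, mostly Ttr, at 4.74 and 6.01 RPKM. B and plasma cell markers lay at 55.9 and 236 RPKM, nearly all from Igj, the immunoglobulin J chain, at 53.2 and 230 RPKM, and 3 of the 3 markers averaging 1 RPKM or more were higher in uterus 2. The neutrophil list was low at 2.27 and 3.49 RPKM, with Camp and Ngp listed at 0. The part of these cells in the complement ratios was not tested.

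**Figure D4:**
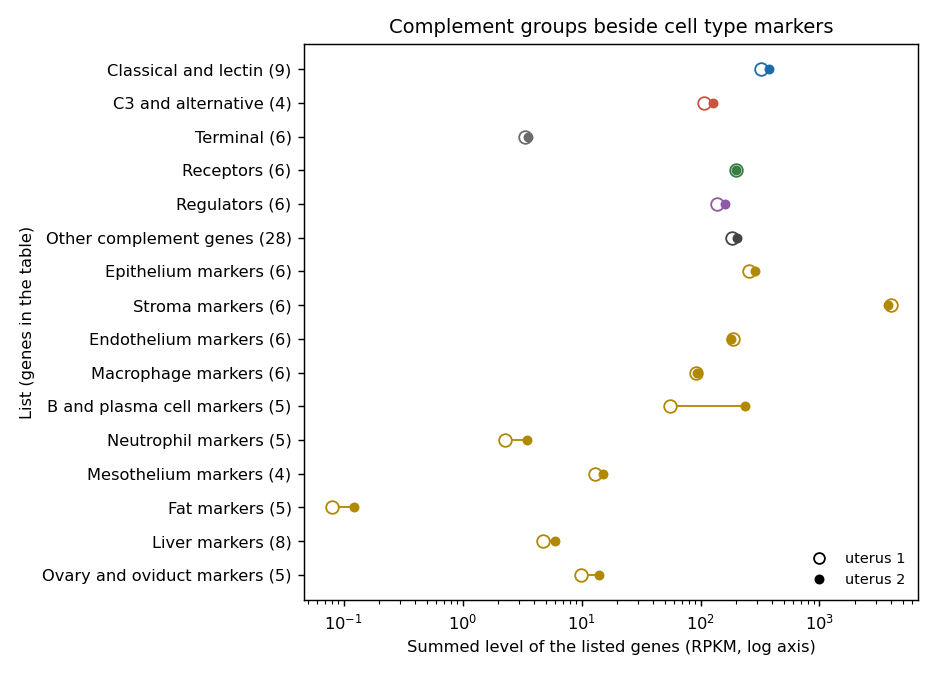
Summed level in RPKM on a log axis of each complement group, of the other complement genes and of cell type marker lists, in uterus 1 (open) and uterus 2 (filled), with the number of genes in parentheses. The B and plasma cell list differs most between the uteri among lists above 10 RPKM, at 55.9 and 236 RPKM, and the terminal group lies at 3.32 and 3.55 RPKM.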

How the data were processed

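Per the labels' protocols, TRIzol RNA was made into TruSeq RNA libraries. The series text adds poly-A selection and HiSeq2500 sequencing. The authors deposited RPKM values, per the series text. The submitters' processing notes name TopHat, edgeR and build mm9, with no role or version. The counting program, annotation and use of strand are not given in the sources used here. The 2 deposited tables hold identical values for all 22740 shared genes. Deposited starts count from 0 and are printed from 1.

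Single-exon genes of known length gave scaling totals of 3834174 and 4256101 (after rounding). With them, 17424 of 17426 genes above 0 came out as whole reads over a whole length (relative tolerance 1e-12). A common factor was chosen by closeness to a GENCODE M1 transcript length. It exceeded 1 for 13.7% of genes, and for Masp1 it is open (29 and 33 reads, or 58 and 66). Duplicates made by PCR count as separate reads, so intervals cover only counting error.

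The exact binomial test (two-sided, at least 6 reads in sum, adjusted p under 0.05) used library totals of recovered reads. It was run on simulated data, whose outcome is not given here and does not measure its error in these uteri. Shared sequence was counted as 50-base stretches of GENCODE M1 transcripts. A start upstream of the deposited one was used for promoters where it lay within 1000 bases. The genes, lists and tests were chosen with earlier results of these data known. By rule, each of the 31 genes averaging 1 RPKM or more is given with both values, and other complement genes from 10 RPKM. The marker list had 1 neutrophil gene, Ly6g, that was not analysed here, and 1 other marker and 1 other complement gene are not reported here. Python 3.11.15, scipy 1.17.1, pandas 2.3.3, numpy 2.4.6 and matplotlib 3.10.9 were used.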

Additional observations from a re-analysis of the deposited data

How the results depend on the processing

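The detected count of 22 complement genes stayed within 1.5 times under thresholds of 0.5 and 2 RPKM, on the TPM scale (RPKM rescaled to a fixed sum) and without either library. The other complement genes detected numbered 6 at a threshold of 2 RPKM, against 10. The median level of the 31 genes was 18.2 on the TPM scale, which changes the unit, and 13.7 RPKM without genes listed at 0 in either uterus, which raises it by construction. No gene was 2-fold apart with pseudocounts of 0.01 and 1 or a filter at 10 RPKM, but 3 of 27 were with a filter at 0.1 RPKM, 4 of 29 with none and 2 of 25 on the TPM scale. All of these enter through lower filters. No share over all genes is given for the alternative thresholds and filters, so these counts have no background. The number higher in uterus 2, counted after seeing the data, was 10 of 13 with a filter at 10 RPKM, which has fewer genes. The median log2 ratio ran from 0.21 to 0.23 over its 6 alternatives. The exact binomial test called 5 complement genes under each of its 4 alternatives. Each gene's mean level moves by less than 1 SD when a library is left out, which its construction fixes. Genes under about 20 reads, the terminal genes among them, are limited by depth. No paired analysis was possible because the labels give a single group.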
